A study of Mus musculus with 6 samples.

Results

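The 34 genes described here are expressed by endothelial cells, the cells that line blood vessels. They were chosen by name: 4 genes of sinusoids (Stab1, Stab2, Plvap and Emcn), 3 genes of arterioles (Sox17, Gja4 and Bmx) and 27 genes shared by most endothelium. All 34 were measured, among 18193 genes in all. The donors were 3 male C57BL/6 mice, 8 weeks old, each given saline into the peritoneum, and no genetic change is given for them. Endosteal RNA (3 arrays, A, B and C) was what Trizol, a phenol-based lysis reagent, carried out of the femoral shaft once its marrow had been flushed away. Central RNA (3 arrays, A, B and C) came from the flushed marrow cells, which were pelleted before lysis. Muscle and periosteum were scraped and rubbed off and the metaphyses cut away beforehand. The number of arrays limits the precision, and the p-values measure the spread between these arrays.

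Blood enters the marrow through arterioles that branch near the endosteum, and leaves through sinusoids, wide thin-walled vessels with a fenestrated lining that spread through the marrow. Arteriolar endothelium is marked by SoxF and Notch pathway genes, and sinusoidal endothelium by scavenger receptors and by the diaphragm protein of fenestrae. Vessels with much endomucin and CD31, the products of Emcn and Pecam1, lie close to bone-forming surfaces. Several endothelial genes are shared with blood cells. Megakaryocytes also make Vwf, Selp, Mmrn1, Esam and Pecam1, macrophages make Stab1, red cells make Aqp1, and stem and progenitor cells make Fgd5, Erg, Esam and Cd93.

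Of the 34 genes, 19 passed as higher and 1 as lower in endosteal than in central RNA, against 7.74% and 3.97% of all 18193 genes. A gene is called when its adjusted p was under 0.05 in limma's moderated test with Benjamini-Hochberg adjustment over all genes. All differences below are endosteal minus central on the log2(signal + 16) scale, where 1 is a 2-fold change and low signals understate the change. The median of the 34 was 1.39, against 0.10 for all genes, and the values ran from -0.83 for Bmx to 2.83 for Sox18. The endosteal arrays all lay above the central arrays for 26 of the 34 and all below for 2, against 22.1% and 15.4% of all genes. Setting the 3 pairs of arrays that share a letter side by side, 27 of the 34 were higher in every pair and 2 lower in every pair, against 31.1% and 21.5% of all genes. Quantile normalisation and centring on the array median each left 19 higher and 1 lower calls, and scaling to the poly-A controls, chosen after the data were seen, gave 31 and 0. Over all genes the counts were 1409 higher and 723 lower as deposited, 1139 and 692 after quantile normalisation, 927 and 1783 after centring and 9224 and 52 on the poly-A scale. In whole-tissue RNA, more endothelial cells and more RNA per endothelial cell cannot be told apart. Region also went with preparation, lysis inside the flushed shaft against flushed and pelleted cells. The effects of region and of preparation cannot be told apart either.

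The calls were lost in the fit that pairs the arrays by letter. With the letter as a replicate block, 0 of the 34 were called (0.467% of all genes higher and 0% lower in that limma fit), and the 20 called genes had adjusted p from 0.0529 to 0.112. In that fit 25 of the 34 had an unadjusted p under 0.05 with a positive difference and 1 with a negative one, against 16.6% and 10.4% of all genes. Leaving out 1 array gave 13, 9 and 14 higher genes without endosteal A, B and C, and 14, 8 and 16 without central A, B and C. The genes called in each of those 6 fits were Emcn, Sox17, Esam, Clec14a, Ptprb, Gpihbp1 and Aplnr, 7 of the 20.

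**Figure D1:**
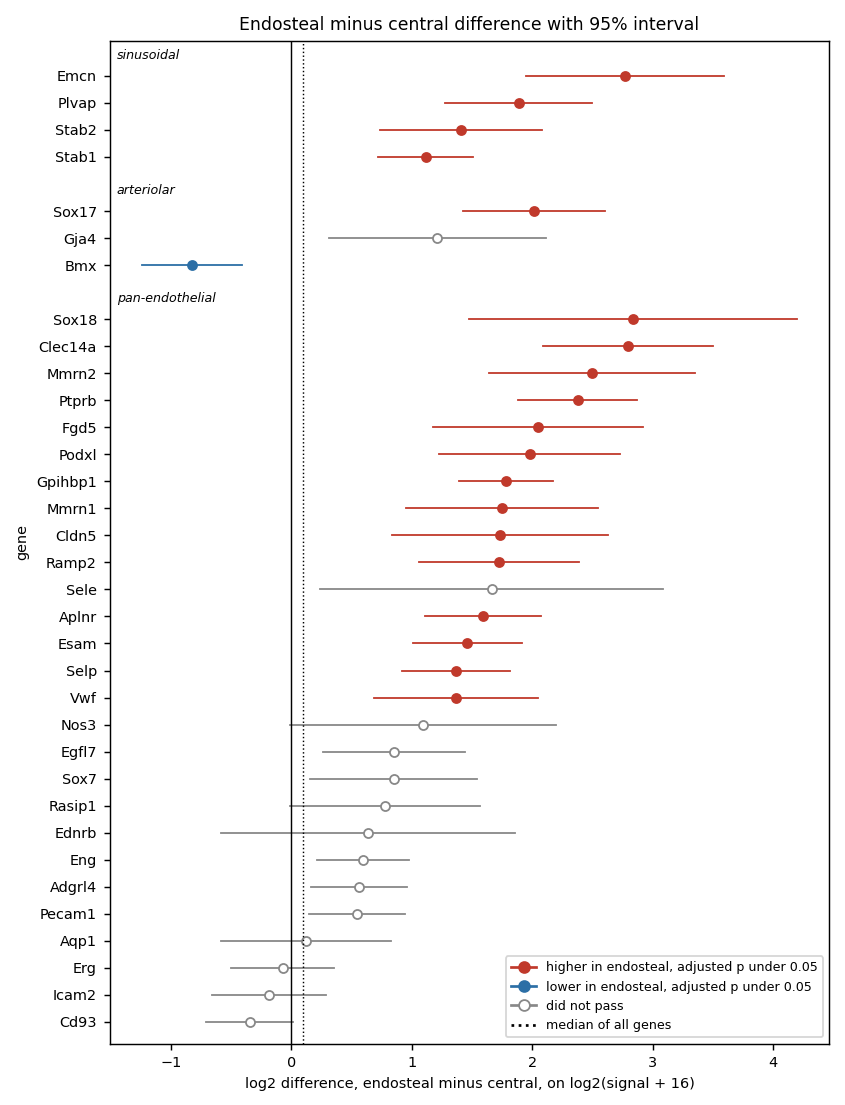
Difference between endosteal and central RNA for each of the 34 genes, as log2(signal + 16), endosteal minus central. Points are estimates from 3 arrays per region and bars their 95% intervals; filled red points were called higher, filled blue lower, and open grey points did not pass. The 4 sinusoidal genes lie right of the median of all genes (0.10), as do the arteriolar genes Sox17 (2.01) and Gja4 (1.21). The arteriolar gene Bmx lies at -0.83.

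The promoters of 5 of these genes are shown because they span the pattern of the data: Emcn, Stab2 and Clec14a were called higher, Gja4 did not pass and Bmx was called lower. Each runs from 250 bases before to 50 bases after the start of the gene in RefSeq (build GRCm38.p6), 5′ to 3′ on the gene's strand. Capitals mark the core letters bound by ETS factors such as Erg (AGGAA, or TTCCT on the other strand) and by SOX factors such as Sox7, Sox17 and Sox18 (ACAAT, or ATTGT).
Emcn, chr3:137340828-137341127, + strand: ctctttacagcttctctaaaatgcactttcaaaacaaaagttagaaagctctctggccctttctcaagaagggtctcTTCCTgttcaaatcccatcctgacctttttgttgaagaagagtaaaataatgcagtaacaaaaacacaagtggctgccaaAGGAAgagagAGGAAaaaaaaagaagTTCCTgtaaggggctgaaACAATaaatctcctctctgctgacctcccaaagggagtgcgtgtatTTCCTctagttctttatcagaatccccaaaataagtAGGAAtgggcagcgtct
Stab2, chr10:87007893-87008192, - strand: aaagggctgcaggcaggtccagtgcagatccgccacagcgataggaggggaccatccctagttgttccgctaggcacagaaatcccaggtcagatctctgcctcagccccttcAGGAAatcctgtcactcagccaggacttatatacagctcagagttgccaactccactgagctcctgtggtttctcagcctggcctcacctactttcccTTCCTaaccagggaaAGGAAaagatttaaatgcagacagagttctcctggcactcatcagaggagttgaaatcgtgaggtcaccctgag
Clec14a, chr12:58269209-58269508, - strand: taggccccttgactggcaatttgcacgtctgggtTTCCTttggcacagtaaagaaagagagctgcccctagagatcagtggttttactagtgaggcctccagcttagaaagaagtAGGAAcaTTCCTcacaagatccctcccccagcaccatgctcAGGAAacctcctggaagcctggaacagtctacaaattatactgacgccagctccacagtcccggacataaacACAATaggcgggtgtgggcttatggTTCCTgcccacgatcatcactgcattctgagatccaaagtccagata
Gja4, chr4:127313990-127314289, - strand: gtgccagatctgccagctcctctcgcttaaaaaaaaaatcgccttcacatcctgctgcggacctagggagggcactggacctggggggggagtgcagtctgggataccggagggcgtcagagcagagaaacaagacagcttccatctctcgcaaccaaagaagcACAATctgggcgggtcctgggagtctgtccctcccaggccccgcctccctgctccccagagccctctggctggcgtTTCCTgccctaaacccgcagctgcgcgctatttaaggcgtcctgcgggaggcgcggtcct
Bmx, chrX:164258144-164258443, - strand: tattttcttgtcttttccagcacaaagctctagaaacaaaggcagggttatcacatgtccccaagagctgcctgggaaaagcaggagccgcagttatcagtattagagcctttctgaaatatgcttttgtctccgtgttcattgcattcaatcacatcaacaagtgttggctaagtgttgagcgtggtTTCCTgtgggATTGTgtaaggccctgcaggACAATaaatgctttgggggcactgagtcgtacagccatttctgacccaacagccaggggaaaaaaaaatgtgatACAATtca
The RefSeq table held 22 promoters of 18 of the 34 genes. AGGAA stood in 18 of the 22 (81.8%), against 66.7% of all 32851 promoters in the table, and ACAAT in 6 (27.3%), against 31.0%. On both strands together, Emcn held AGGAA at 6 places and ACAAT at 1, Clec14a at 5 and 1, Stab2 at 3 and 0, Gja4 at 1 and 1, and Bmx at 1 and 3. Among windows not shown, the called genes Cldn5, Fgd5 and Mmrn1 held AGGAA at 0, 2 and 5 places. Of genes that did not pass, Rasip1 held it at 4, and the windows of Egfl7 at 4, 2 and 0. Whether the number of places goes with the calls was not tested. No base belonged to both motifs in these 22 windows. These matches describe letters only, and binding was not measured.

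All 4 sinusoidal genes were called higher, with a median difference of 1.65. Emcn, the sialomucin endomucin of sinusoidal and venous endothelium, had signals of 614, 509.7 and 421 in endosteal RNA (in the order A, B, C here and below), against 69.6, 32.8 and 92.7 in central RNA. The lowest endosteal signal lay above the highest central one, and the difference was 2.77 (SE 0.33, adjusted p = 0.0103). Plvap, which forms the diaphragms of fenestrae and caveolae, had 742, 736 and 722 in endosteal RNA, against 130.2, 190.4 and 259.6 in central RNA. Its endosteal arrays were almost level while the central ones varied, and the difference was 1.89 (SE 0.25, adjusted p = 0.0123).

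Stab2 and Stab1 encode stabilins, scavenger receptors that take up hyaluronan and modified proteins from the blood. Stab2 had 879, 889.8 and 1185 in endosteal RNA, against 244, 406 and 459.6 in central RNA, a difference of 1.41 (SE 0.27, adjusted p = 0.0321). Stab1 had 436, 458 and 449 in endosteal RNA, against 228, 162 and 209.7 in central RNA, a difference of 1.11 (SE 0.16, adjusted p = 0.0151). The regions did not overlap for either. Of the 4 genes, Stab2 was the least secure, with adjusted p from 0.0571 to 0.0870 when any 1 of the 6 arrays was left out. Stab1 missed the threshold without endosteal B (adjusted p = 0.0531) or central C (0.0505), and Plvap without central B (0.0520).

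Macrophages, which also make Stab1, carried their own transcripts on the same arrays. Of 12 macrophage marker genes, 6 were called higher and 0 lower, with a median of 1.08, and their summed signal ran from 29515 to 35886.5 in endosteal RNA, against 19094 to 19409 in central RNA. The highest signals among them were those of Csf1r (0.37, adjusted p = 0.110), Cd68 (0.48, 0.134) and C1qb (1.24, 0.0182). No marker was listed at 0, nor was any other gene on these arrays. Their part in the difference of Stab1 was not tested.

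Of the 3 arteriolar genes, 1 was called higher and 1 lower, with a median of 1.21. Sox17, a SoxF transcription factor of arterial endothelium, had 236, 205 and 209 in endosteal RNA, against 25.0, 49.9 and 54.3 in central RNA. It was called higher at 2.01 (SE 0.24, adjusted p = 0.0101). Its 2 probe sets differed in size, since the one with the lower signal gave 0.90 and did not pass in the limma fit of every probe set (adjusted p = 0.364). Their mean gave 1.46 and passed (adjusted p = 0.0261).

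Gja4 encodes connexin 37, a gap junction protein of arterial endothelium. Its signals were 159, 122 and 112 in endosteal RNA, against 27.4, 37.4 and 90.9 in central RNA. The regions did not overlap, but Gja4 did not pass (difference 1.21, SE 0.36, adjusted p = 0.0891), and without central C, the highest central array, the adjusted p was 0.0336.

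Bmx, a Tec family tyrosine kinase of arterial endothelium that granulocytes and monocytes also make, was called lower. It had 607, 659.7 and 779 in endosteal RNA, against 1419.7, 1117 and 1130.1 in central RNA, and the regions did not overlap. The difference of -0.83 (SE 0.17, adjusted p = 0.0352) was the only call in that direction among the 34. It did not pass when any 1 array was left out, with adjusted p from 0.0537 without endosteal C to 0.0937 without endosteal B. Scaled to the poly-A control probe sets, an alternative chosen after the data were seen, its difference was 0.090 (adjusted p = 0.719). Of 11 granulocyte genes on the same arrays, 5 were called higher and 1 lower, with a median of 0.56, and their summed signal ran from 577308 to 583148 in endosteal RNA, against 370805 to 408220.0 in central RNA. S100a9, S100a8 and Ngp had the highest signals, at 0.82, 0.55 and 0.76. The 1 granulocyte gene called lower was Mmp8, at -0.77 (adjusted p = 0.0383). These granulocyte calls depended on the scaling, with 1 higher and 1 lower (median 0.11) after quantile normalisation and 0 higher and 1 lower (median 0.30) after centring on the array median, and S100a8 had -0.11 in its lowest alternative. Their part in the difference of Bmx was not tested.

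**Figure D2:**
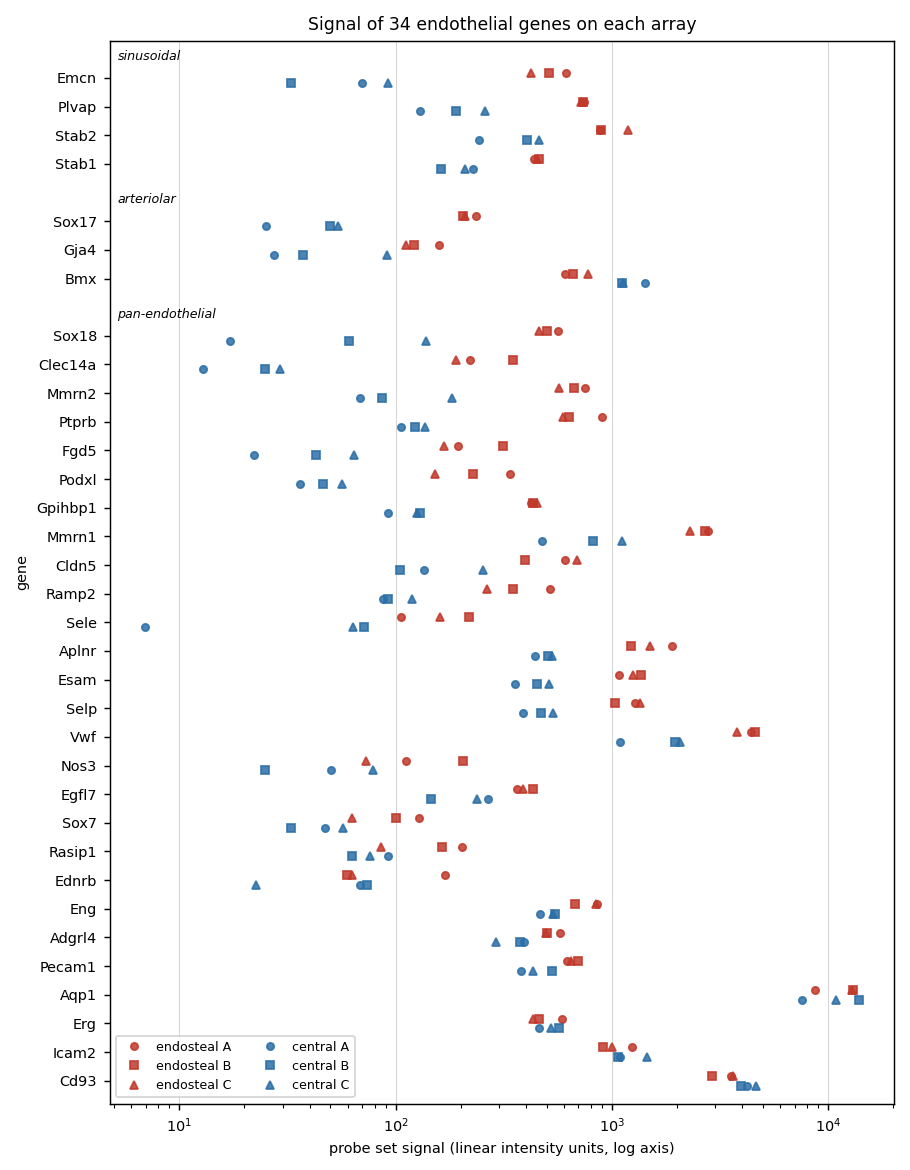
Probe set signal of each gene on each array, in linear intensity units on a log axis, endosteal in red above central in blue. Each symbol is 1 array. Endosteal signals of the 4 sinusoidal genes all lie right of the central ones, and those of Bmx and Cd93 all lie left. The signals of Aqp1, Erg, Icam2, Nos3, Ednrb and Rasip1 overlap.

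Among the transcription factors, 2 of 4 were called higher. Sox18, which with Sox7 and Sox17 makes up the SoxF group of vessel development, had 563, 498 and 461 in endosteal RNA, against 17.2, 60.7 and 138 in central RNA. The difference of 2.83 (SE 0.55, adjusted p = 0.0322) was the largest of the 34. It passed in 2 of the 6 fits with 1 array left out, those without central A (0.0435) and central C (0.0244). The other 4 gave adjusted p from 0.0749 to 0.0973. Sox7 had 129, 100.6 and 62.6 in endosteal RNA, against 47.3, 33.0 and 57.3 in central RNA, and did not pass (0.85, adjusted p = 0.110). Erg, an ETS factor that keeps endothelial identity and is also made by stem cells and megakaryocytes, had 589.5, 460.4 and 432 in endosteal RNA, against 458, 571 and 523 in central RNA. Its regions overlapped (difference -0.07, SE 0.17, adjusted p = 0.820, 95% interval -0.50 to 0.35), and scaling to the poly-A controls gave 0.83 (adjusted p = 0.0414).

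Clec14a and Cd93 are C-type lectin-like receptors of endothelium, and both bind the matrix protein multimerin 2, the product of Mmrn2. Clec14a had 220.1, 349 and 190.4 in endosteal RNA, against 12.9, 24.8 and 29.2 in central RNA. Its difference of 2.79 (SE 0.29, adjusted p = 0.00721) rests on a central signal near the pseudocount, and was 3.47 with a pseudocount of 1 and 1.85 with 64. A second probe set gave 0.92 and did not pass (adjusted p = 0.115). Mmrn2 had 749, 668 and 571 in endosteal RNA, against 68.2, 86.4 and 183 in central RNA (2.49, SE 0.34, adjusted p = 0.0141). All 4 probe sets of Mmrn2 passed, at 1.71 to 2.49. Mmrn2 missed the threshold without central B (0.0587) and endosteal B (0.0506).

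Cd93, which myeloid and B cell progenitors also make, did not pass. It had 3541, 2912 and 3636 in endosteal RNA, against 4219, 3968 and 4627 in central RNA. The endosteal arrays all lay below the central ones, with a difference of -0.35 (SE 0.15, adjusted p = 0.189). It passed only with an intensity trend in the spread. Of its 5 probe sets, 2 had positive and 3 negative differences, and none passed in the limma fit of every probe set. Mmrn1, multimerin 1 of platelets and some endothelium, had 2778, 2695 and 2284 in endosteal RNA, against 473, 820.1 and 1112 in central RNA (1.75, SE 0.32, adjusted p = 0.0286). It did not pass without central B or any 1 endosteal array (0.0642 to 0.0870), or when its 2 probe sets were averaged (1.37, adjusted p = 0.0628).

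Junction and adhesion genes are Pecam1, Esam, Cldn5, Icam2, Podxl, Selp, Sele, Emcn and Ptprb, of which 6 of 9 were called higher. Ptprb, the vascular endothelial phosphatase that holds VE-cadherin and Tie2 in check, had 895, 636 and 596 in endosteal RNA, against 106, 123 and 137 in central RNA (2.38, SE 0.20, adjusted p = 0.00465). Esam, an adhesion molecule of tight junctions and platelets, had 1083, 1370 and 1248 in endosteal RNA, against 357, 452 and 512 in central RNA (1.46, SE 0.18, adjusted p = 0.0113). For both, the lowest endosteal signal was more than 2 times the highest central one.

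Podxl, the sialomucin podocalyxin of vessel lumens, had 338, 227 and 152 in endosteal RNA, against 36.3, 46.1 and 56.7 in central RNA (1.98, SE 0.30, adjusted p = 0.0184). Cldn5, the tight junction claudin of endothelium, had 609, 398 and 686 in endosteal RNA, against 135, 105 and 254 in central RNA (1.73, SE 0.36, adjusted p = 0.0388). Both lost the call in most fits with 1 array left out. Cldn5 passed only without central C (0.0363), the highest central array, and otherwise had adjusted p from 0.0620 to 0.120. Podxl did not pass without endosteal B (0.0589), central A (0.0677), central B (0.0682) or central C (0.0506).

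Selp and Sele encode selectins, which slow leukocytes on the vessel wall. Selp, P-selectin of endothelial storage bodies and platelet granules, had 1273, 1028 and 1353 in endosteal RNA, against 389, 469 and 534 in central RNA (1.36, SE 0.18, adjusted p = 0.0129). It did not pass without central B (0.0549) or when its 3 probe sets were averaged (1.01, adjusted p = 0.110). Sele, E-selectin, which marrow vessels make without inflammation, had 106, 218 and 160.4 in endosteal RNA, against 6.96, 71.5 and 63.2 in central RNA. It did not pass (1.66, SE 0.58, adjusted p = 0.124), and central A lay far below the other two central arrays.

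Pecam1 and Icam2 are adhesion molecules that endothelium shares with platelets and leukocytes. Pecam1 had 622, 697 and 648 in endosteal RNA, against 379.9, 531 and 433 in central RNA. The regions did not overlap, yet Pecam1 did not pass (0.55, SE 0.16, adjusted p = 0.0864). Icam2 had 1234, 913 and 1002 in endosteal RNA, against 1093, 1063 and 1447 in central RNA (-0.19, SE 0.19, adjusted p = 0.570), with a 95% interval of -0.66 to 0.29.

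Vwf and Egfl7 encode secreted proteins. Vwf, von Willebrand factor of endothelial storage bodies and platelets, had 4376, 4589 and 3795 in endosteal RNA, against 1089, 1954 and 2062 in central RNA. It was called higher at 1.36 (SE 0.28, adjusted p = 0.0352), but with 1 array left out it passed only without central A (0.0409) and otherwise had adjusted p from 0.0649 to 0.0959. Egfl7, a matrix-bound angiogenic factor whose gene also hosts a microRNA, had 363, 431 and 386 in endosteal RNA, against 267, 146 and 237 in central RNA, and did not pass (0.85, SE 0.24, adjusted p = 0.0760). Its other 3 probe sets gave 1.31 to 1.38, and 2 of them passed. Their mean with the first gave 1.23 (adjusted p = 0.0108).

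Transcripts of megakaryocytes, the cells that shed platelets, were on the same arrays. Of 14 megakaryocyte and platelet genes, 7 were called higher and 0 lower, with a median of 1.18. Their summed signal ran from 116907 to 139031 in endosteal RNA, against 36323 to 67134 in central RNA. As with every gene, no marker was listed at 0. Ppbp, Pf4 and Clec1b had the highest signals, at 1.20 (adjusted p = 0.0544), 1.89 (0.0185) and 1.15 (0.0801). The 5 genes first named above as also made by megakaryocytes, Vwf, Selp, Mmrn1, Esam and Pecam1, had a median of 1.36, with 4 called higher. Erg (-0.07) and Icam2 (-0.19), also described here as shared with megakaryocytes or platelets, were outside this set and did not pass. The 10 genes first listed above as shared with other marrow cells had a median of 1.24 (6 called higher, 0 lower), and the other 24 a median of 1.63 (13 higher, 1 lower). The 24 are not all restricted to endothelium, since they include Icam2 and Bmx, the 1 lower call, which blood cells also make. The part of platelets in these differences was not tested.

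Of 5 receptors and co-receptors, 2 were called higher. Aplnr, the apelin receptor of venous and sprouting endothelium, had 1898, 1232 and 1492 in endosteal RNA, against 443, 506 and 529 in central RNA (1.59, SE 0.19, adjusted p = 0.0107), and a second probe set gave 0.22 and did not pass (adjusted p = 0.435). Ramp2, which turns the calcitonin-like receptor into an adrenomedullin receptor, had 516, 348 and 266 in endosteal RNA, against 87.4, 91.9 and 119.5 in central RNA (1.72, SE 0.27, adjusted p = 0.0187). Ramp2 did not pass without endosteal B (0.0585), central A (0.0703) or central B (0.0712).

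Eng, endoglin, a co-receptor for TGF-beta and BMP ligands, had 856, 674 and 844.5 in endosteal RNA, against 467, 547 and 536 in central RNA, and did not pass (0.59, SE 0.15, adjusted p = 0.0626). Its second probe set gave 1.92 (adjusted p = 0.0633), and the mean of both passed (1.26, adjusted p = 0.0379). Adgrl4, an adhesion G protein-coupled receptor of endothelium, had 575, 504 and 498 in endosteal RNA, against 393, 375 and 291 in central RNA (0.56, SE 0.16, adjusted p = 0.0809). Ednrb, the endothelin B receptor, had 168, 59.3 and 63.1 in endosteal RNA, against 68.7, 73.6 and 22.5 in central RNA, with overlap (0.64, SE 0.49, adjusted p = 0.453). Its other probe sets gave 1.25 and 0.40 and did not pass in the limma fit of every probe set (adjusted p = 0.0569 and 0.588).

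Gpihbp1 and Aqp1 serve transport across the vessel wall. Gpihbp1, which carries lipoprotein lipase across capillary endothelium, had 423, 429.8 and 448 in endosteal RNA, against 92.2, 129 and 126 in central RNA. It was called higher at 1.78 (SE 0.16, adjusted p = 0.00520), and its endosteal arrays lay within a narrow range. Aqp1, the water channel of endothelium and red cells, had 8708.5, 13003 and 12875 in endosteal RNA, against 7546, 13834 and 10865 in central RNA. Its regions overlapped (0.12, SE 0.29, adjusted p = 0.819, 95% interval -0.59 to 0.83). The 8 erythroid genes did not pass in the same limma fit, and their median was -0.29. Slc4a1, Alas2 and Tfrc, with the highest signals, had -0.08, -0.81 and -0.12.

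Among the remaining signalling genes, Fgd5, an exchange factor for Cdc42 in endothelium and stem cells, had 194, 314 and 168 in endosteal RNA, against 22.2, 42.7 and 64.2 in central RNA (2.05, SE 0.35, adjusted p = 0.0241). It passed without endosteal C (0.0467) or central C (0.0420), but not without another array (0.0613 to 0.0809). Of 9 stem and progenitor genes, 0 were called higher and 1 lower, and their median was 0.03. Nos3, the endothelial nitric oxide synthase, had 112, 204 and 72.6 in endosteal RNA, against 50.4, 24.8 and 78.3 in central RNA, with overlap (1.10, SE 0.45, adjusted p = 0.175). Rasip1, a Rap1 effector needed for vessel lumens, had 203, 164 and 85.6 in endosteal RNA, against 92.7, 63.0 and 76.2 in central RNA, also with overlap (0.78, SE 0.32, adjusted p = 0.176).

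Endothelial genes outside the 34 were read from the same fit. Of 25 other genes shared by most endothelium, 8 were called higher and 2 lower, with a median of 0.84. Tmem204 was higher at 2.61 (adjusted p = 0.0116), Tek, the angiopoietin receptor Tie2, at 2.44 (0.00415), Kdr, the main VEGF receptor, at 1.80 (0.0389) and Cav1, which forms caveolae, at 1.77 (0.0387). Klf2, the shear stress factor that lymphocytes and other blood cells also make, was lower at -1.38 (0.0149), and Hhex, a homeobox gene of endothelium and B cells, at -0.83 (0.0184). With 1 array left out, 3 to 5 of the 25 were called higher and 0 to 2 lower, and Hhex turned to 0.10 (adjusted p = 0.701) when scaled to the poly-A controls.

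Of 14 other arterial genes, 4 were called higher and 2 lower, with a median of 0.98. Fbln5, an elastic fibre protein that fibroblasts and smooth muscle also make, was higher at 3.08 (adjusted p = 0.00415). The netrin receptor gene Unc5b was higher at 2.67 (0.0142), the lymphangiogenic ligand gene Vegfc at 1.63 (0.00962) and the Notch ligand gene Jag1 at 1.20 (0.0236). Notch1, a receptor of endothelium and lymphoid cells, was lower at -0.96 (0.0252), and Cxcr4, the receptor of Cxcl12 on blood cells and arterial endothelium, at -0.73 (0.0348). Of 12 other sinusoidal and venous genes, 5 were called higher and 0 lower, with a median of 0.91. Nrp2, a co-receptor for VEGF and semaphorins, was higher at 2.08 (0.00258), Tfpi, the inhibitor of tissue factor, at 1.85 (0.00883), Vcam1, the adhesion molecule, at 1.56 (0.00951) and Flt4, VEGF receptor 3 of sinusoids and lymphatics, at 1.53 (0.0353). Nrp2 and Tfpi were also called with the replicate block (adjusted p = 0.0478 and 0.0484). None of the 34 were, and the other genes named in this and the preceding paragraph had adjusted p from 0.0521 to 0.120. Of 18 alternative fits, Nrp2 and Tfpi passed in 18, and Vcam1, Fbln5 and Vegfc in 17. Jag1 and Notch1 passed in 11, Flt4 in 10 and Cxcr4 in 9, and Unc5b in 15 of 17. Jag1 had 0.40 in its lowest alternative, and Notch1 -0.03 in its highest.

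**Figure D3:**
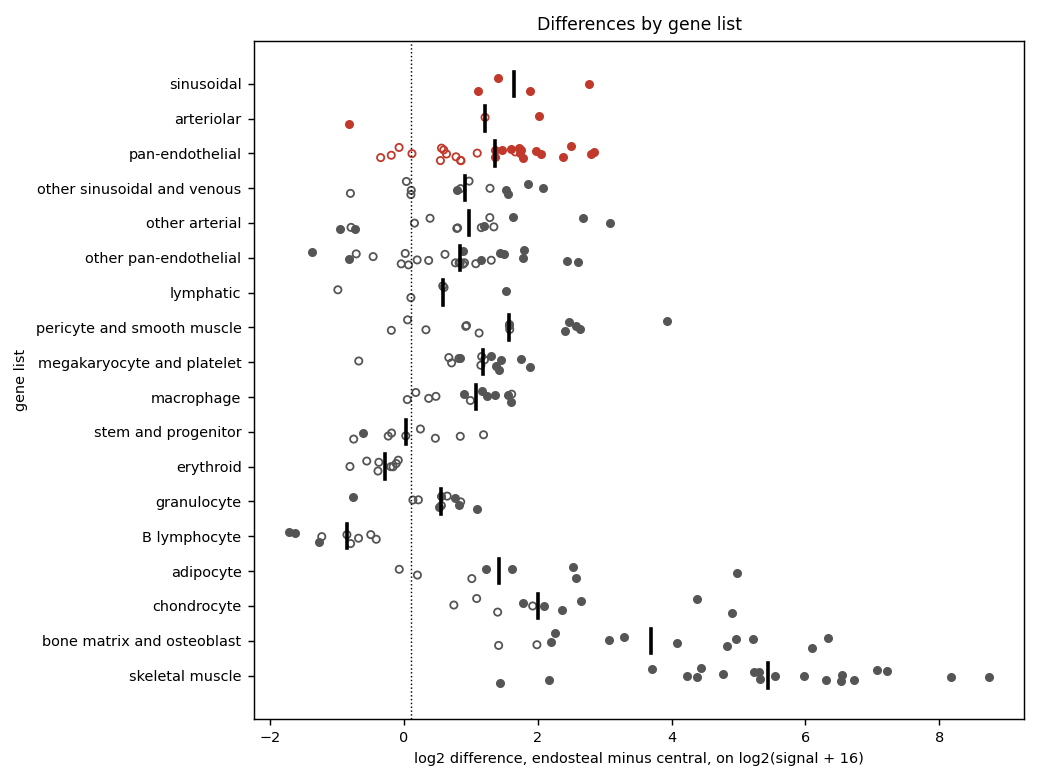
Difference between endosteal and central RNA (log2 scale, endosteal minus central) of each gene by list, with the 3 groups of the 34 genes in red and other lists in grey. Filled points passed the threshold, black bars are list medians, and the dotted line is the median of all genes. Medians were 1.65, 1.21 and 1.36 for sinusoidal, arteriolar and shared endothelial genes, 3.69 for bone matrix and 5.44 for skeletal muscle.

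Endosteal arrays also carried transcripts of bone and of muscle. Of 12 bone matrix and osteoblast genes, 10 were called higher (median 3.69), and of 20 skeletal muscle genes, 20 (median 5.44, summed signal 88392 to 175984 in endosteal RNA and 1380.5 to 2016 in central RNA). Pericyte and smooth muscle genes had 6 of 14 called higher (median 1.57), chondrocyte genes 6 of 10 (2.01) and adipocyte genes 5 of 8 (1.43). Lymphatic genes had 1 of 5 called higher (0.58), and 0 were lower in each of these lists. The lymphatic call was Flt4, also counted above among sinusoidal and venous genes. Prox1 (0.58), Pdpn (0.60), Lyve1 (0.10) and Reln (-0.99) did not pass. With the replicate block, limma called 12 of the 20 muscle genes, 5 of the bone genes and 2 of the chondrocyte genes higher, and 0 of the pericyte, adipocyte, lymphatic, megakaryocyte, macrophage and granulocyte genes. Of 9 B lymphocyte genes, 0 were higher and 3 lower, and their median of -0.85 was 0.08 when scaled to the poly-A controls. Relative to the central mean, the 34 genes had endosteal medians of 1.42 (A), 1.29 (B) and 1.37 (C), and muscle genes had 5.95, 5.31 and 5.09. Among endosteal arrays, A was highest for 18 of the 34 and lowest for 9, against 34.2% and 34.5% of all genes. Endosteal C was highest for 6 and lowest for 17, against 32.3% and 34.1% of all genes. The 34 genes share each library, so these counts describe 3 arrays. Muscle and bone have vessels of their own, and their part in the endothelial signal was not tested.

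**Figure D4:**
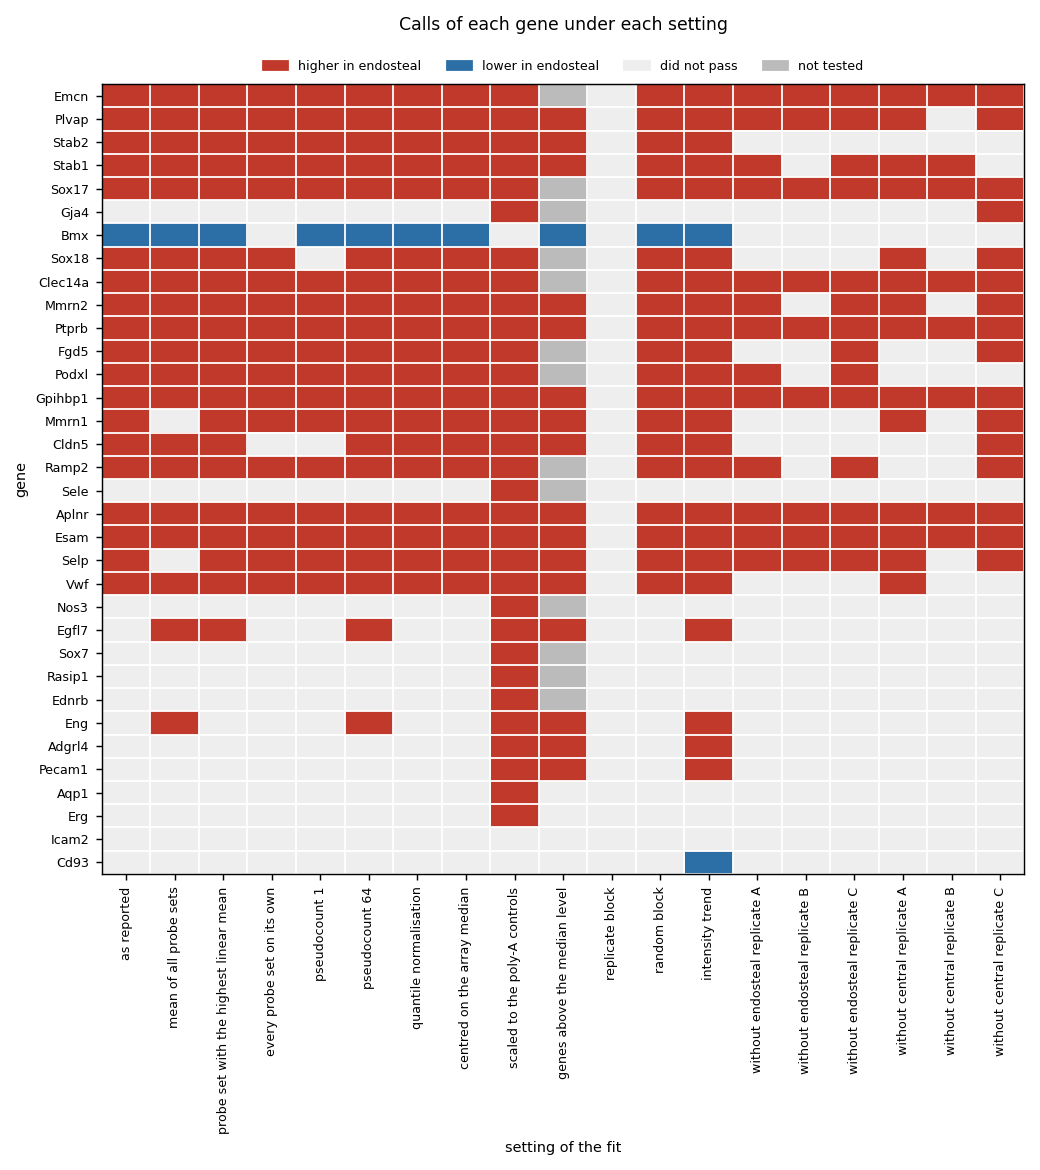
Call of each of the 34 genes (rows) under each setting of the fit (columns), red for higher and blue for lower in endosteal RNA, light grey for genes that did not pass and darker grey for genes not tested. The replicate block column holds 0 calls, and scaling to the poly-A controls 31 higher calls.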

How the data were processed

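The authors deposited a linear intensity per probe set (45101 in all) for each of 6 Affymetrix arrays, 1 per sample, labelled by a one-cycle kit per the labels' protocols. Their software and background correction: not given in the sources used here. After trimming 2% at each end the arrays had equal mean signals, and their medians ran from 119.6 to 131.0 in endosteal and from 97.2 to 106 in central RNA. Between 15.9% and 20.1% of probe sets per array lay below 16.

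Probe sets naming 1 gene (34945) gave 18193 genes, each taken as the probe set with the highest mean log2(signal + 16). Gene identifiers were looked up in RefSeq (GRCm38.p6). The test between regions was limma's (version 3.58.1, R 4.3.3), two-sided, with region as the only term, after the study's comparison of averages. On simulated arrays of 18193 genes the share of altered genes recovered was 23.3% at a log2 change of 1, 74.2% at 2 and 79.5% at 4, with 3.94% false calls. The simulated noise was independent for each gene and held no effect of letter, so this share does not measure false calls in the real arrays.

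Each letter stands on 1 endosteal and 1 central array of the 3 mice, though the labels do not say whether it names a mouse. Deviations from the region means correlated within letter A at 0.05, within B at 0.04 and within C at 0.01 (every gene), or 0.26, 0.13 and 0.10 (the more strongly expressed genes). Because the animals are shared, blocked values are given. All 34 genes are described. From each list of other endothelial genes, up to 4 called genes with the largest difference in the main direction and up to 2 in the other are named, and up to 3 markers with the highest mean signal from the lists of other cell types. The 34 genes, the lists and the roles were chosen from general knowledge with earlier results of these data known. Alternatives covered the gene summary, pseudocount, scaling, a filter on low values, block, intensity trend and each array left out, and protein sequences were not used here.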

Additional observations from a re-analysis of the deposited data

How the results depend on the processing

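Of 18 alternatives, other gene summaries, pseudocounts 1 and 64, quantile normalisation, median centring, an intensity trend, a random block and a filter at the median level (13 of the 34 untested) gave 16 to 23 higher calls among the 34 genes, against 19. They came to 31 when scaled to the poly-A controls (0 lower), where the median of all genes was 0.89, against 0.10 as deposited, 0.02 after quantile normalisation and -0.16 after centring. They came to 0, with 0 lower, under the replicate block, and to 8 to 16, with 0 lower, when 1 array was left out, where the fit also had fewer samples. The 1 lower call became 0 when every probe set was fitted on its own and 2 with an intensity trend. Over all genes, 1409 were called higher and 723 lower. The counts were 85 and 0 with the replicate block (3026 and 1899 at an unadjusted p under 0.05), 927 and 1783 after centring on the array median, 9224 and 52 scaled to the poly-A controls, 2184 and 1690 with an intensity trend, and 502 to 890 and 89 to 297 with 1 array left out. Lower genes numbered 435 with every probe set on its own, 1106 with pseudocount 64 and 1722 after the filter at the median level. Scaled to the poly-A controls, Bmx had a log2 difference of 0.090, Erg to 0.83, Hhex to 0.10 and Cxcr4 to 0.20, and the cause of the other changes was not tested. Quantile normalisation, median centring and the random block ended 0 of the 20 calls. Without a pseudocount, the log2 ratio of mean signals, computed here, was 3.51 for Clec14a. Signals near 16 hold little information on level.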

Other observations

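The central arrays differed among themselves in endothelial signal. Central C had the highest of the 3 central signals for 22 of the 34 genes and the lowest for 2, against 34.9% and 29.1% of all genes. Central A had the lowest for 22 of the 34 and the highest for 5, against 40.7% and 31.7% of all genes. The genes share the library, so these counts describe 3 arrays. The order was not particular to endothelial genes. On central A, B and C, Pf4 of megakaryocytes had 6070, 10090 and 12741, and Cd79a of B lymphocytes 3734, 4245 and 5188. The granulocyte gene Elane ran the other way, with 17078, 16407 and 14113. On the log2(signal + 16) scale the range was widest for Sox18, with signals of 17.2, 60.7 and 138, and for Sele, with 6.96, 71.5 and 63.2, on central A, B and C.

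Genes around the capillary lipase that Gpihbp1 anchors were measured as well. Lpl, the lipase itself, averaged 5438 ± 768 in endosteal RNA and 1777 ± 425 in central RNA (SD, n = 3 each) and was called higher by limma at 1.62 (adjusted p = 0.0135). Fabp4, a fatty acid carrier of fat cells and capillary endothelium, averaged 5200.4 ± 143 in endosteal RNA and 1007 ± 653 in central RNA, and was called higher at 2.53 (adjusted p = 0.0230). Cd36, the fatty acid receptor of capillaries, platelets and macrophages, averaged 2123 ± 667 in endosteal RNA and 2178 ± 455 in central RNA, with a difference of -0.07 (adjusted p = 0.907). All 3 stood in the adipocyte list and were singled out after their values were seen. With the replicate block Lpl and Fabp4 had adjusted p of 0.0749 and 0.0782.

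The probe sets of a gene did not always give the same size. Of the 15 genes among the 34 with several probe sets, 13 had positive differences on every one, and the exceptions were Cd93 and Erg.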
